A study of Homo sapiens with 12 samples.

Results

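Fatty acid synthesis and desaturation was examined through 10 genes chosen by name, SCD, FASN, ACACA, ACLY, ACSS2, ACSL3, ELOVL5, ELOVL6, FADS1 and FADS2, out of 5308 genes listed in at least 1 of the 3 deposited tables. A table lists the genes for which the authors' model put the probability of equal expression in treated and control cells under 0.05. Of the 10 genes, 5 were listed somewhere, SCD, ACSS2, ACSL3, FADS1 and FADS2, and 2 of these, SCD and ACSS2, were listed in all 3 tables. The other 5, FASN, ACACA, ACLY, ELOVL5 and ELOVL6, were in no table, so their levels were not analysed here and nothing can be said of whether they changed.

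The cells were KKU-213A, an established human cell line from cholangiocarcinoma, a cancer of the bile ducts, labelled as mixed, papillary and non-papillary. All 12 libraries came from this line in low-glucose DMEM with serum, 3 each from lactic acidosis, lactosis, acidosis and control cultures. Lactic acidosis medium was at pH 6.7 with L-lactate at 25 mM and the buffer HEPES at 25 mM, lactosis medium 25 mM L-lactate at pH 7.4, and acidosis medium 25 mM HEPES at pH 6.5. Control cells were untreated, whereas a minimum of 5 passages in the given medium preceded use of the others, so acid cannot be told apart from the buffer, nor a treatment from time in its medium. The pH also differed between the 2 acid media. The labels do not say if the libraries of a group are from independent cultures, so p-values reflect only how these libraries vary, possibly for technical reasons. Polyadenylated RNA was sequenced as single-end reads of 75 nt.

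Fatty acids are built in the cytosol from acetyl-CoA, which ACLY makes from citrate and ACSS2 makes from acetate. ACACA carboxylates acetyl-CoA to malonyl-CoA, FASN joins these units into palmitate, and the elongases ELOVL6 and ELOVL5 lengthen saturated and polyunsaturated chains. SCD puts the first double bond into saturated chains, FADS2 and FADS1 act in turn to make long polyunsaturated fatty acids, and ACSL3 activates fatty acids to acyl-CoA at the endoplasmic reticulum and on lipid droplets. Most of these genes are known targets of the SREBP transcription factors, which INSIG1 holds back when sterols are plentiful, and SCD is also induced by the liver X receptors.

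The SREBPs are known to act with the factor NF-Y, which binds CCAAT. Windows around annotated starts are shown for listed members where they hold CCAAT. Whether either factor had a part in the changes of these genes was not tested. Of the 10 genes, 9 had a RefSeq promoter window on GRCh38.p14, from 250 bases before to 50 bases after a start, and some had several. FASN had none in the table. Capitals mark CCAAT or its reverse complement ATTGG.
SCD, chr10:100346983-100347282, plus strand: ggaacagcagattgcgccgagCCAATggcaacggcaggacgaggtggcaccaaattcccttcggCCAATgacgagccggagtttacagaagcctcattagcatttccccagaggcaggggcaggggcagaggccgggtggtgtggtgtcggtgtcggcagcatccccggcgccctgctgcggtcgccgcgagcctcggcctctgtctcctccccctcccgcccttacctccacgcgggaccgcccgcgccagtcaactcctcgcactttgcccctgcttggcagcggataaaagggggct
ACSS2, chr20:34874739-34875038, plus strand: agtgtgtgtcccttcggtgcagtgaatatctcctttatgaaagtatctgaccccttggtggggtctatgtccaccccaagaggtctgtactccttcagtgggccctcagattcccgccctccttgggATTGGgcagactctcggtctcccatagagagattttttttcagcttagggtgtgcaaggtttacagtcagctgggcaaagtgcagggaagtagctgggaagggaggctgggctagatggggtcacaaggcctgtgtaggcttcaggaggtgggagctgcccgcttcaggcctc
FADS2, chr11:61816154-61816453, plus strand: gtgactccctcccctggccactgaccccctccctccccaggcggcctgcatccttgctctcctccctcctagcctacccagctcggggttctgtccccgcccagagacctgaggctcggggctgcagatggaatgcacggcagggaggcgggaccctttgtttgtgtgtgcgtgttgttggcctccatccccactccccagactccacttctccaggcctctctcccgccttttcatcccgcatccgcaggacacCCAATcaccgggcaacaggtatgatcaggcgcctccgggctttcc
ACSL3, chr2:222860786-222861085, plus strand: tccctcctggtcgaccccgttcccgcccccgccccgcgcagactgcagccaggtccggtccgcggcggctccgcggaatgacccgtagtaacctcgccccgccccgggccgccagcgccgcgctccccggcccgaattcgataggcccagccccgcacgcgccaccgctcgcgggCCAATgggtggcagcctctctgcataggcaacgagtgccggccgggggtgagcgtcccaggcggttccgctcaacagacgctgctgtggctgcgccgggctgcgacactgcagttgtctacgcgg
The SCD window holds CCAAT at 229 and at 186 bases before the start, and the ACSL3 window at 75 bases before the start. The ACSS2 window shown holds it in reverse at 123 bases before the start, and the FADS2 window shown at 5 bases after the start. CCAAT in either orientation was found in 4 of 7 windows of listed members and in 5 of 7 windows of members in no table, against 34.6% of all 35116 windows of this length. Windows of the same gene can overlap and share matches, as those of ACLY did. By gene, 4 of 5 listed members and 3 of 4 of the others had CCAAT in at least 1 window. FADS1 had no CCAAT match. Neither did another window of ACSS2, chr20:34876362-34876661, nor another of FADS2, chr11:61815953-61816252, and these are not shown. The sterol response element spelled TCACNCCAC, where N is any base, was in 0 of 7 windows of listed members and 0 of 7 of the others, against 1.13% of all windows. The E-box CACGTG was in 0 of 7 windows of listed members and 1 of 7 of the others, that of ELOVL5, against 7.26% of all windows. The GC box GGGCGG, not capitalised here, was in 6 of 7 windows of listed members and 5 of 7 of the others, against 45.0% of all windows. Both strands were searched, and in the windows of listed members no match overlapped another. A match is a description of letters, and a missing match says only that these letters are not in this window.

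Depth is unknown, since no library totals are given, but the authors' group means of size-factor-scaled counts show how many reads stand behind a gene. By the deposited means in the lactic acidosis table, SCD had 11777 scaled counts in lactic acidosis and 31072 in control, while FADS2, with the fewest of the listed members, had 226 and 323. On the length-scaled values, which are comparable between genes, SCD ranked 46 of 5308 genes by its control mean, ACSL3 ranked 564, ACSS2 1752, FADS1 1882 and FADS2 3406. The authors' ratios of group means could be rebuilt from the per-library values only with library weights. These were fitted for each table, with control replicate 1 set to 1. For lactic acidosis they were 0.802 and 0.775 for control replicates 2 and 3, and between 0.765 and 0.804 for treated libraries. For lactosis they were 0.785 and 0.77 for these controls and 0.78 to 0.883 for treated libraries. For acidosis they were 0.795 and 0.774 for these controls and 0.774 to 0.904 for treated libraries. Values multiplied by these weights are called rescaled. Relative to these size factors, the deposited values raise treated over control by 0.10 (log2) for lactic acidosis, 0.02 for lactosis and 0.0025 for acidosis. Of the biliary markers, KRT19 was listed in 2 tables and stood between 2596.21 and 3066.95 in lactic acidosis libraries and between 2798.71 and 4419.27 in control libraries, while 8 of the 12 markers were not listed there and were not checked. The other 3 listed in lactic acidosis went both ways by limma on the log2 scale. SOX9 was higher by 1.53, at 32.85 to 35.7 in lactic acidosis and 6.41 to 17.34 in control (adjusted p = 0.00183). SLC4A2 was higher by 0.35, at 44.59 to 46.38 in lactic acidosis and 29.94 to 39.38 in control (adjusted p = 0.0479). MUC1 fell by 1.14, to 0.33 to 0.35 in lactic acidosis, against 1.41 to 2.3 in control (adjusted p = 0.000449). Adding 1 to such low values shrinks the MUC1 difference, for which the authors' deposited table gives -2.66. It rests on few reads, 3.93 scaled counts in lactic acidosis and 24.9 in control. Of 18 muscle genes, 7 were listed in lactosis, and their summed value was 55.99 in lactosis replicate 2, against 0.49 in lactosis replicate 1, 0.53 in lactosis replicate 3 and no more than 1.5 in control. For lactic acidosis, 6 were listed higher, and their sum was 32.89 in lactic acidosis replicate 2, against 1.54 in replicate 1, 0.95 in replicate 3 and no more than 1.27 in control. Another 3 were listed lower there, with sums of 16.05 to 22.56 in lactic acidosis libraries and 37.61 to 56.53 in control libraries.

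**Figure D1:**
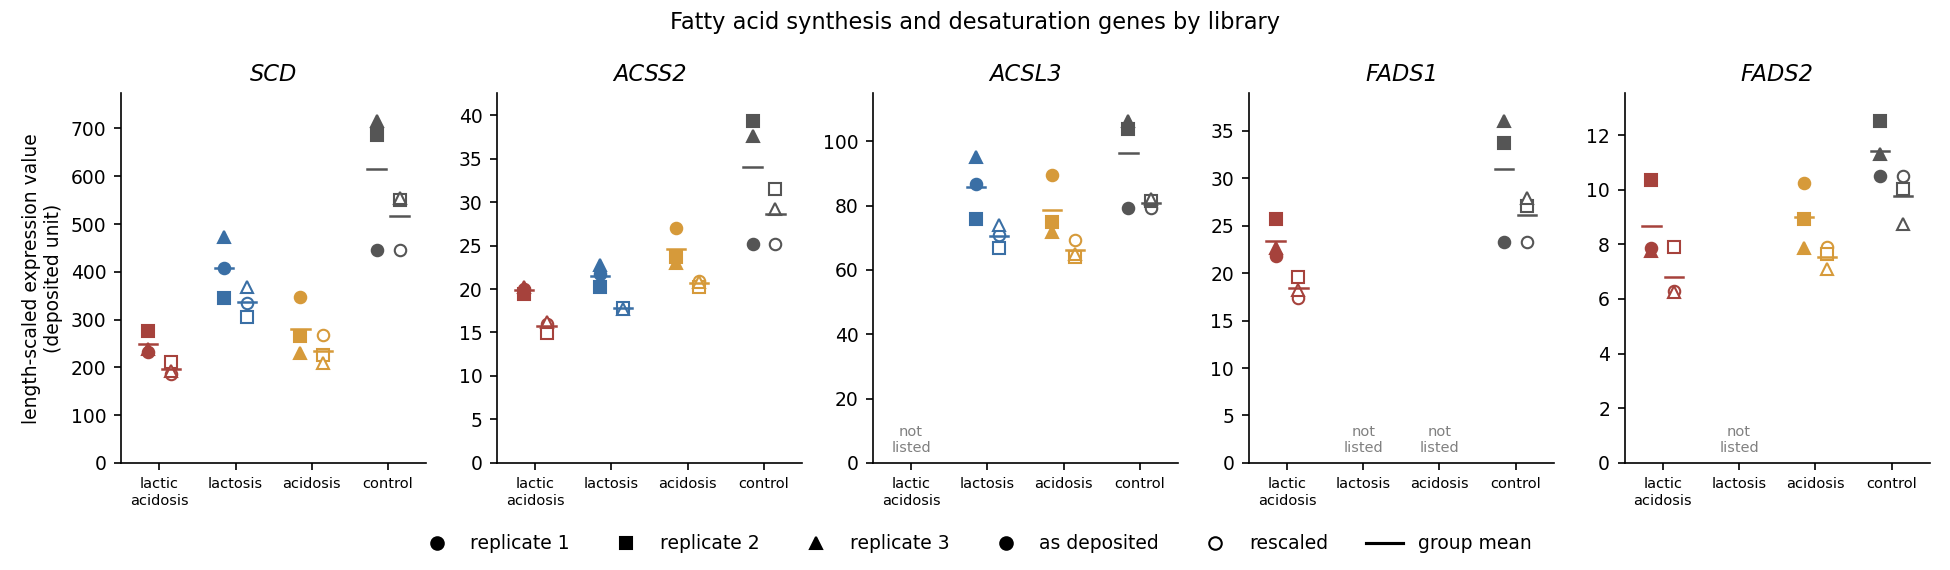
Length-scaled expression (y axis, deposited unit, from 0) of the 5 listed genes in each library, with group means as short lines, filled symbols as deposited and open symbols rescaled to the size factors of the authors (control with the weights of the first table that lists the gene). As deposited, SCD stood between 232.27 and 275.95 in lactic acidosis and between 445.3 and 715.95 in control, and all rescaled treated libraries lie below the rescaled control libraries of the same table.

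The first comparison, lactic acidosis with control, asks about lactate and acid together. SCD was lower at 40.4% of its control mean, ACSS2, which makes acetyl-CoA from acetate, at 58.5%, and both desaturases of polyunsaturated fatty acids, FADS1 and FADS2, were listed lower at 75.3% and 75.7%. All 4 listed members were lower and none was higher, while 6 were not listed, where 41.1% of all 4279 listed genes were lower. The median log2 fold change of the 4 in the authors' deposited table was -0.69, beside -0.81 over all genes listed lower and 0.37 over all listed genes. In bulk RNA, fewer cells that use a gene and less of its RNA per cell cannot be told apart.

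SCD had values of 232.27, 275.95 and 238.71 in lactic acidosis libraries and 445.3, 686.93 and 715.95 in control libraries. Every lactic acidosis library lay below the lowest control library, which was control replicate 1. The means were 249 ± 23.6 in lactic acidosis and 616 ± 149 in control (SD, n = 3 each), and limma on log2(value + 1) gave a log2 difference of -1.28 (SE 0.19, adjusted p = 0.000794). In the authors' deposited table SCD fell by 1.40 on the log2 scale, or 62.1% of its scaled counts, and the loss of 19295 scaled counts was the fifth largest of all listed genes. By fold change, though, SCD ranked 426 among the 1758 genes listed lower.

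ACSS2 had values of 20.06, 19.48 and 20.21 in lactic acidosis libraries and 25.19, 39.35 and 37.65 in control libraries. The lactic acidosis libraries were nearly equal and the groups did not overlap. Its limma log2 difference was -0.72 (SE 0.18, adjusted p = 0.00664), and the authors' deposited table gives -0.87.

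FADS1 had values of 21.77, 25.68 and 22.63 in lactic acidosis libraries and 23.26, 33.74 and 36.06 in control libraries. Control replicate 1 lay among the lactic acidosis libraries, so the groups overlapped. By limma the log2 difference of -0.37 (SE 0.18) missed the threshold (adjusted p = 0.0731). It passed without control replicate 1, at -0.56 (adjusted p = 0.000626 by limma), and on rescaled values, at -0.48 (adjusted p = 0.00269), where the groups did not overlap. The authors' deposited table gives -0.50. FADS2 had values of 7.88, 10.34 and 7.76 in lactic acidosis libraries and 10.49, 12.52 and 11.29 in control libraries. The groups did not overlap, but lactic acidosis replicate 2 was close to control replicate 1. Its limma log2 difference of -0.37 (SE 0.15) passed (adjusted p = 0.0422), and the authors' deposited table gives -0.51. The call was lost in limma without lactic acidosis replicate 1 or 3 (adjusted p = 0.147 and 0.158) and without control replicate 2 or 3 (adjusted p = 0.138 and 0.0638). It held without lactic acidosis replicate 2, the library high in 6 muscle genes (adjusted p = 0.0325, limma), as did those of SCD (adjusted p = 0.00489) and ACSS2 (adjusted p = 0.03).

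By limma over all 4279 listed genes, 3 of the 4 listed members passed, all lower, where 30.8% of listed genes passed as lower and 86.1% in either direction. The 30.8% are 1316 genes, beside 1758 listed lower, as all 4 members were. Rescaled, 4 of 4 members passed, where 97.6% of listed genes passed in either direction. On that scale 4 of 4 were lower without overlap, as were 40.8% of listed genes. That share is 1744 genes, beside 1758 listed lower, so the listing nearly fixed this count in advance. The listed genes were chosen by the authors on these same libraries, so limma describes the spread and adds no independent evidence. FADS1 lies on chromosome 11 from 61799625 to 61829318 on the minus strand of GRCh38, and FADS2 from 61792980 to 61867354 on the plus strand, so the genes overlap. The sources used here do not say whether reads were counted by strand, and reads from the overlap then cannot be told apart. Of all windows of 75 bases in their transcripts, 3.03% for FADS1 and 2.13% for FADS2 also occur in another gene. SCD lies on chromosome 10 from 100347124 to 100364834, and it shares 0.89% of its windows, with its pseudogene SCDP1 and with AC126365.1. ACSS2 lies on chromosome 20 from 34872146 to 34927962, shares 0 windows and overlaps GGT7 on the other strand.

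The lactosis libraries, from lactate at neutral pH, were set against control next. SCD and ACSS2 were again lower, at 66.4% and 63.2% of their control means, and ACSL3, the acyl-CoA synthetase of lipid droplets, was listed lower at 89.0%. All 3 listed members were lower, where 40.7% of the 3087 listed genes were lower, and 7 members, FADS1 and FADS2 among them, were not listed. On the log2 scale, the authors' deposited table gives -0.61 for SCD, -0.67 for ACSS2 and -0.20 for ACSL3, with a median of -0.61 beside -0.72 over all genes listed lower.

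SCD had values of 408.68, 345.62 and 472.52 in lactosis libraries. Lactosis replicate 3 lay above control replicate 1, so the groups overlapped as deposited, while on rescaled values they did not. The limma log2 difference was -0.57 (SE 0.21, adjusted p = 0.0329). ACSS2 had values of 21.73, 20.18 and 22.71 in lactosis libraries, all below the lowest control library, and its limma log2 difference was -0.61 (SE 0.18, adjusted p = 0.0162). After rescaling, the lactosis values of ACSS2 were 17.77, 17.81 and 17.72, against 25.19, 30.9 and 28.99 in control. ACSL3 had values of 86.83, 75.78 and 95.01 in lactosis libraries and 79.36, 103.87 and 106.38 in control libraries. The groups overlapped through control replicate 1, and the limma log2 difference of -0.16 (SE 0.16) did not pass (adjusted p = 0.352).

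By limma, 2 of the 3 listed members passed in lactosis, SCD and ACSS2, both lower, where 31.2% of listed genes passed as lower. The 31.2% are 963 genes, beside 1257 listed lower, as all 3 members were. The calls of SCD and ACSS2 both depended on single libraries. Over the 6 fits that left out a library, 1423 to 2589 of all listed genes passed, beside 2398 with every library kept. Without lactosis replicate 1, 0 members passed, with adjusted p = 0.0799 for SCD and 0.0511 for ACSS2 by limma. Without lactosis replicate 2, the library with the muscle genes, 0 passed as well, with adjusted p = 0.107 and 0.0516, and the part of those genes in the result was not tested. Without control replicate 2 the adjusted p was 0.103 for SCD and 0.0625 for ACSS2, and without control replicate 3 only SCD lost its call (adjusted p = 0.0813, limma). On rescaled values both genes passed with any of the 6 libraries left out, with adjusted p of at most 0.0108 for SCD and 0.00464 for ACSS2, while 97.3% of all listed genes passed on that scale with all libraries. Without overlap on that scale, 3 of 3 members were lower, as were 40.3% of listed genes. That share is 1245 genes, beside 1257 listed lower, so the listing nearly fixed this count too. ACSL3 passed on rescaled values (adjusted p = 0.0482, limma), but of the 6 fits that left out a library there, 1 passed, the one without control replicate 1 (adjusted p from 0.0407 to 0.152, limma). As deposited it also passed without control replicate 1 (adjusted p = 0.0441, limma).

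The acidosis libraries, from acid medium with no added lactate, were also set against control. SCD was lower at 45.5% of its control mean. ACSS2, FADS2 and ACSL3 were listed lower, at 72.1%, 78.8% and 81.6% of their control means. All 4 listed members were lower, where 38.9% of the 1721 listed genes were lower, and 6 members, FADS1 among them, were not listed. On the log2 scale, the authors' deposited table gives -1.14 for SCD, -0.47 for ACSS2, -0.36 for FADS2 and -0.30 for ACSL3, with a median of -0.41 beside -0.59 over all genes listed lower.

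SCD had values of 346.5, 264.8 and 230.45 in acidosis libraries, all below the lowest control library. The limma log2 difference was -1.12 (SE 0.21, adjusted p = 0.00135), and the loss of 16581 scaled counts in the authors' table was the second largest of all listed genes. ACSS2 had values of 27.03, 23.7 and 22.96 in acidosis libraries, and acidosis replicate 1 lay above control replicate 1. FADS2 had values of 10.24, 8.94 and 7.85, all below the lowest control library. ACSL3 had values of 89.65, 74.95 and 71.82, and acidosis replicate 1 again lay above control replicate 1.

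By limma over the listed genes of the acidosis table, 1 of the 4 listed members passed, SCD, where 24.2% of listed genes passed as lower. The 24.2% are 416 genes, beside 670 listed lower, as all 4 members were. ACSS2 had adjusted p = 0.0541, FADS2 0.0937 and ACSL3 0.139 by limma. Over the 6 fits that left out a library, 425 to 1251 of all listed genes passed, beside 1033 with every library kept. Without control replicate 1, all 4 members passed, with log2 differences of -0.63 for ACSS2 (adjusted p = 0.0024), -0.37 for FADS2 (adjusted p = 0.0275) and -0.42 for ACSL3 (adjusted p = 0.0157, limma). All 4 passed on rescaled values too, where 97.6% of listed genes passed (ACSL3 not without acidosis replicate 2, at adjusted p = 0.0541, limma). There 4 of 4 were lower without overlap, as were 38.8% of listed genes. That share is 668 genes, beside 670 listed lower, so the listing nearly fixed this count as well. ACSL3 lies on chromosome 2 from 222860934 to 222944639 and shares 0.44% of its windows, with an antisense transcript. SCD passed in each of the 6 fits that left out a library, in acidosis (adjusted p of at most 0.00819, limma) as in lactic acidosis (at most 0.00594).

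**Figure D2:**
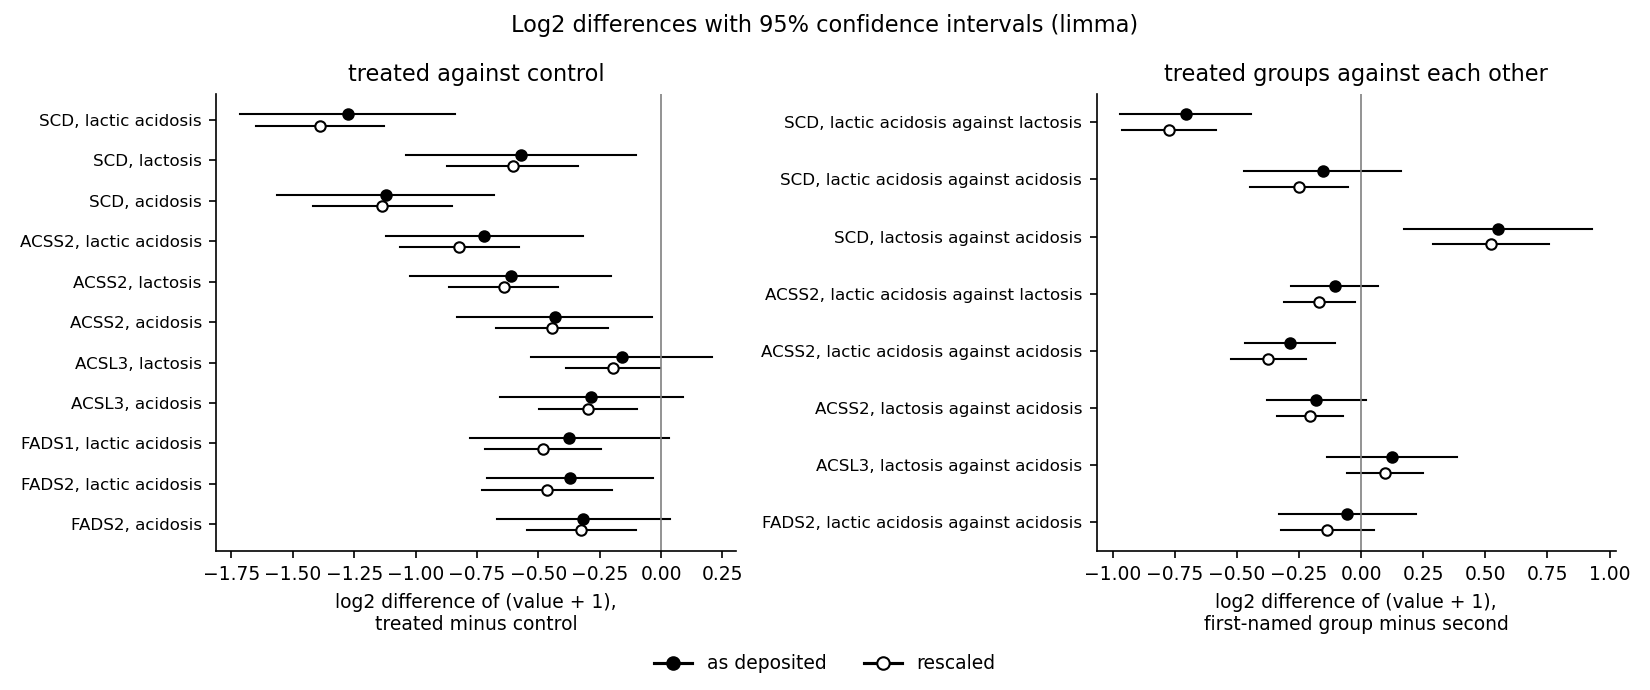
Limma log2 differences of value + 1 (x axis) with 95% confidence intervals as lines, for treated minus control on the left and between treated groups on the right, filled as deposited and open rescaled. SCD lies at -1.28, -0.57 and -1.12 in lactic acidosis, lactosis and acidosis as deposited, and the interval of ACSL3 in lactosis spans 0 as deposited.

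The treated groups were set against each other for genes listed in both tables concerned. All 3 treated groups share the control libraries, so only these direct contrasts compare them. SCD differed between lactic acidosis and lactosis, ACSS2 between lactic acidosis and acidosis, and the order of the group means was not the same for the 2 genes. SCD means ran from 249 in lactic acidosis through 281 in acidosis and 409 in lactosis to 616 in control. ACSS2 means ran from 19.9 in lactic acidosis through 21.5 in lactosis and 24.6 in acidosis to 34.1 in control.

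SCD was lower in lactic acidosis than in lactosis at 60.9% of the lactosis mean, and the groups did not overlap. The limma log2 difference was -0.71 (95% interval -0.97 to -0.44, adjusted p = 0.00248), and 1 of the 2 members tested passed, lower, where 4.78% of the 2344 genes passed as lower. It passed in each of the 6 fits that left out a library (adjusted p of at most 0.016, limma). ACSS2 had a log2 difference of -0.11 between the same groups (95% interval -0.28 to 0.07, adjusted p = 0.349, limma), and the groups overlapped.

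Between lactic acidosis and acidosis, ACSS2 was lower at 81.1% of the acidosis mean, and the groups did not overlap. The limma log2 difference was -0.29 (95% interval -0.47 to -0.10, adjusted p = 0.0157), and 1 of the 3 members tested passed, lower, where 10% of the 1304 genes passed as lower. It passed with any of the 6 libraries left out (adjusted p of at most 0.0498, limma). SCD had a log2 difference of -0.16 there (95% interval -0.47 to 0.16, adjusted p = 0.384, limma), which passed on rescaled values at -0.25 (adjusted p = 0.0365) although the groups still overlapped. That call was lost without lactic acidosis replicate 1 or 3 (adjusted p = 0.129 and 0.106, limma) and without acidosis replicate 1 (adjusted p = 0.148, limma). On rescaled values 2 of the 3 passed, both lower, where 15.6% of the genes passed as lower. FADS2 had -0.05 (95% interval -0.33 to 0.22, adjusted p = 0.742, limma).

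Between lactosis and acidosis, SCD was higher in lactosis by 0.55 on the log2 scale (95% interval 0.17 to 0.93, adjusted p = 0.0442, limma), and 1 of the 3 members tested passed, higher, where 16.4% of the 1173 genes passed as higher. The groups overlapped, since acidosis replicate 1 at 346.5 lay above lactosis replicate 2 at 345.62. The call was lost in limma without lactosis replicate 1 or 3 (adjusted p = 0.119 and 0.13) and without acidosis replicate 2 or 3 (adjusted p = 0.146 and 0.106), and on rescaled values it held in all 6 such fits (adjusted p of at most 0.0278). ACSS2 had a log2 difference of -0.18 (95% interval -0.38 to 0.02, adjusted p = 0.177, limma) as deposited and -0.21 on rescaled values, where it passed (adjusted p = 0.0245), so that 2 of the 3 passed there, where 31.7% of the genes passed in either direction. The ACSS2 call on rescaled values was lost whichever of the 6 libraries was left out (adjusted p from 0.0508 to 0.0839, limma). ACSL3 had 0.12 (95% interval -0.14 to 0.38, adjusted p = 0.487, limma).

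The ratio of SCD to ACSS2 within a library does not depend on how that library was scaled. It was 11.6, 14.2 and 11.8 in lactic acidosis libraries, 18.8, 17.1 and 20.8 in lactosis libraries, 12.8, 11.2 and 10.0 in acidosis libraries, and 17.7, 17.5 and 19.0 in control libraries. The libraries of both acid media lay below every lactosis and control library, and the lactosis and control libraries overlapped. Means were 12.5 ± 1.43 in lactic acidosis, 18.9 ± 1.84 in lactosis, 11.3 ± 1.40 in acidosis and 18.1 ± 0.844 in control (SD, n = 3 each). The ratio was chosen after the values were seen and was not tested, and with 3 libraries against 3 an exact permutation test cannot go below p = 0.1.

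**Figure D3:**
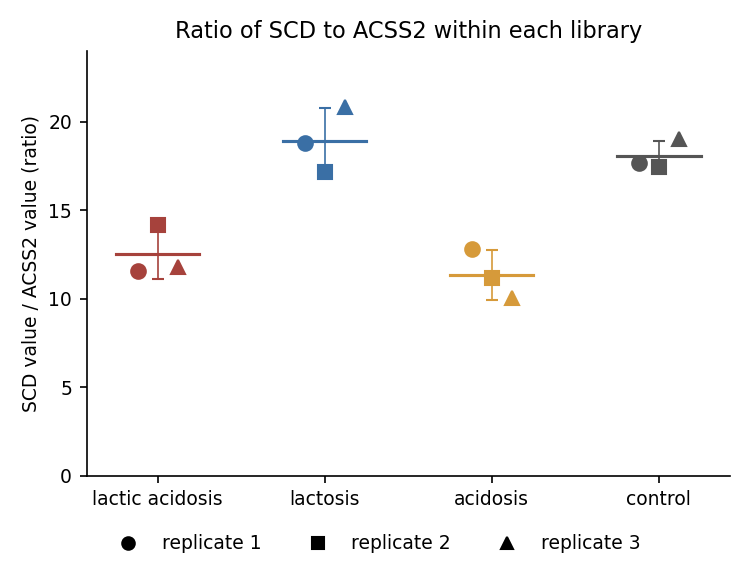
Ratio of the SCD value to the ACSS2 value (y axis, from 0) in each of the 12 libraries, with the group mean as a line and the SD as an error bar. Libraries of the 2 acid media lie between 10.0 and 14.2, those of lactosis and control between 17.1 and 20.8.

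Among the 1042 genes listed in all 3 tables, the genes most like SCD over the 12 libraries by Pearson correlation of log2(value + 1) were TNRC6C-AS1 (r = 0.962), ZNF197 (r = 0.955) and MCOLN3 (r = 0.948). Those most like ACSS2 were CBFA2T2 (r = 0.967), ALDOC (r = 0.966) and ZNF75A (r = 0.965). SCD and ACSS2 had r = 0.814 with each other, rank 79 among the genes compared with SCD. These are descriptions over libraries whose scale all genes share. On rescaled values TNRC6C-AS1 and ZNF197 again came first for SCD, while other genes came first for ACSS2.

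The regulators of lipogenesis that were listed were mostly lower, though most of the 16 were in no table for a given treatment. In all, 4 were listed lower and 0 higher in lactic acidosis, 4 lower and 1 higher in lactosis, and 3 lower and 0 higher in acidosis, where 41.1%, 40.7% and 38.9% of all listed genes were lower. By limma 3 of 4, 3 of 5 and 2 of 3 passed as lower, where 30.8%, 31.2% and 24.2% of all listed genes did. These shares are 1316, 963 and 416 genes, beside 1758, 1257 and 670 listed lower. On rescaled values 4, 4 and 3 passed as lower, where 97.6%, 97.3% and 97.6% of all listed genes passed in either direction. INSIG1, itself a target of the SREBPs, was 9.01, 10.37 and 9.3 in lactic acidosis libraries, 24, 24.31 and 22.24 in lactosis libraries, 25.73, 26.38 and 25.79 in acidosis libraries, and 31.53, 36.11 and 39.52 in control libraries, so no treated group overlapped with control. SREBF1, which encodes the SREBP that drives fatty acid synthesis, was listed lower in lactosis and acidosis, at -0.55 and -0.68 (log2) in the authors' deposited tables, passed limma in both (adjusted p = 0.0106 and 0.00661), and was not listed in lactic acidosis. SREBF2, the SREBP of cholesterol synthesis, was listed lower in all 3 tables, at -0.43, -0.28 and -0.45 in the authors' deposited tables, and passed limma in none as deposited (adjusted p = 0.105, 0.219 and 0.0545) and in all 3 on rescaled values (adjusted p = 0.00311, 0.0186 and 0.00327). NR1H3, a liver X receptor, passed as lower in lactic acidosis and lactosis, at -0.94 and -0.90 in the authors' deposited tables.

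Genes of the supply of acetyl-CoA and NADPH, the reducing power for the pathway, were listed 5 lower and 1 higher of 20 in lactic acidosis. In lactosis 3 were listed lower, and in acidosis 1. By limma 4, 3 and 0 passed as lower, or 5, 3 and 1 on rescaled values. The lower genes of lactic acidosis and lactosis include PDK2, a restraint and not a supplier, so the counts give no direction of supply. Of all listed genes, 41.1%, 40.7% and 38.9% were listed lower, and 30.8%, 31.2% and 24.2% passed as lower on deposited values. On rescaled values 97.6%, 97.3% and 97.6% of them passed in either direction. TKT, a pentose phosphate enzyme, was lower by 0.92 and 0.54 on the log2 scale in lactic acidosis and lactosis in the authors' deposited tables. IDH2 and PDK2, a mitochondrial isocitrate dehydrogenase and a kinase that holds back pyruvate dehydrogenase, were lower in the same 2 groups, at -0.75 and -1.37 in lactic acidosis and -0.74 and -0.88 in lactosis. Of 16 other acyl-CoA synthetases, ACSS1, the mitochondrial relative of ACSS2, was 2.67, 2.46 and 2.65 in lactic acidosis libraries, 3.76, 3.63 and 4.14 in lactosis libraries, and 5.76, 7.79 and 7.14 in control libraries, and it passed limma in both treatments (adjusted p = 0.000329 and 0.00447). Of these synthetases 4 were listed lower and 1 higher in lactic acidosis, 2 lower and 1 higher in lactosis, and 1 higher in acidosis, SLC27A2, and by limma 3 passed as lower and 1 as higher in lactic acidosis.

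Other genes of elongation and desaturation, in a list that also holds the acetyl-CoA carboxylase ACACB, were listed both ways in lactic acidosis. Of 18, 3 were listed higher and 3 lower there, 2 higher in lactosis and 1 higher in acidosis. Of all listed genes, 58.9%, 59.3% and 61.1% were listed higher. The 3 lower were ACACB, HSD17B12 and TECR, at -1.14, -0.28 and -0.31 (log2) in the authors' deposited table. By limma ACACB, which neither elongates nor desaturates, passed as lower as deposited (adjusted p = 0.0123). HSD17B12 and TECR did not pass as deposited (adjusted p = 0.317 and 0.193, limma). All 3 passed as lower on rescaled values, where 97.6% of listed genes passed in either direction. DEGS1, a desaturase of sphingolipids and not of fatty acids, was 75, 90.26 and 78.76 in lactic acidosis libraries, 68.02, 69.92 and 70.38 in lactosis libraries, 54.79, 54.1 and 51.75 in acidosis libraries, and 26.34, 31.76 and 36.52 in control libraries, and it passed limma as higher in all 3 comparisons (adjusted p = 0.000232, 0.000698 and 0.00396). ELOVL1, an elongase of very long saturated chains, passed as higher in lactic acidosis and lactosis, at 0.55 and 0.40 in the authors' deposited tables. HACD1, another gene of elongation, passed as higher in lactic acidosis (adjusted p = 0.00173, limma), at 0.65 in the authors' deposited table. LIAS, which makes lipoic acid in mitochondria, was the 1 listed gene of 9 of mitochondrial fatty acid synthesis, and it passed as lower in lactic acidosis and lactosis (adjusted p = 0.0199 and 0.0253, limma).

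Genes of glycerolipid synthesis, storage and breakdown were mostly higher where listed. Of 26, 12 were listed higher and 2 lower in lactic acidosis, 8 and 2 in lactosis, and 4 and 1 in acidosis, where 58.9%, 59.3% and 61.1% of all listed genes were higher. By limma 9 of 14, 6 of 10 and 2 of 5 passed as higher, where 55.3%, 46.5% and 35.9% of all listed genes did, and 2, 1 and 1 passed as lower. On rescaled values 10, 8 and 4 passed as higher, where 97.6%, 97.3% and 97.6% of all listed genes passed in either direction. MGLL, a monoacylglycerol lipase that breaks glycerolipids down, was 41.15, 48.91 and 46.96 in lactic acidosis libraries, 27.37, 26.61 and 25.22 in lactosis libraries, 15.04, 14.25 and 14.29 in acidosis libraries, and 5.15, 6.54 and 9.14 in control libraries, so no treated group overlapped with control. GPAT3, which starts glycerolipid synthesis, was higher by 1.32 and 1.07 on the log2 scale in lactic acidosis and lactosis, and PLIN2, a coat protein of lipid droplets, by 0.72 in lactic acidosis, in the authors' deposited tables. LIPE, the hormone-sensitive lipase, was lower in all 3, at -2.11, -1.14 and -0.81 in the authors' deposited tables, and passed limma in each (adjusted p = 0.000135, 0.00204 and 0.00893).

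Fatty acid oxidation, uptake and binding moved both ways. Of 27 oxidation genes, 4 were listed higher and 5 lower in lactic acidosis, 2 and 2 in lactosis, and 2 and 0 in acidosis, and by limma 4 and 3, 2 and 1, and 2 and 0 passed. Of 13 uptake and binding genes, 2 were listed higher and 1 lower in lactic acidosis, 3 and 1 in lactosis, and 1 and 1 in acidosis. Over all listed genes in the same order, 58.9%, 59.3% and 61.1% were listed higher, and 55.3%, 46.5% and 35.9% passed as higher. CPT1A, which carries long-chain fatty acids toward mitochondrial oxidation, passed limma as higher in lactic acidosis and lactosis (adjusted p = 0.00445 and 0.0408), at 0.73 and 0.48 in the authors' deposited tables. EHHADH, another oxidation gene, passed limma as lower in the same 2 (adjusted p = 0.0154 and 0.039), at -0.86 and -0.66 there. PPARA, from the same list, was listed lower in both, at -0.61 and -0.52. As deposited it did not pass limma (adjusted p = 0.0618 and 0.0893), and rescaled it did (adjusted p = 0.00426 and 0.0127). FABP5, a fatty acid binding protein, passed as higher in all 3 comparisons, at 0.53, 0.79 and 0.62 in the authors' deposited tables, and VLDLR, a lipoprotein receptor, passed as lower in lactosis and acidosis, at -0.92 and -1.09. Cholesterol synthesis, the other branch under SREBP control, had 13 of 21 genes listed lower in lactic acidosis and 0 higher, 2 lower and 1 higher in lactosis, and 7 lower and 0 higher in acidosis, with 11, 1 and 4 past limma as lower as deposited and 13, 2 and 7 on rescaled values. Of all listed genes, 41.1%, 40.7% and 38.9% were listed lower, and 30.8%, 31.2% and 24.2% passed as lower as deposited. On rescaled values 97.6%, 97.3% and 97.6% of them passed in either direction. FDFT1, the squalene synthase gene, passed limma in lactic acidosis and acidosis (adjusted p = 0.00122 and 0.0471) and not in lactosis (adjusted p = 0.139) as deposited, and in all 3 on rescaled values (adjusted p = 0.00841 in lactosis). The lists of genes were chosen with earlier results of these data known, so their counts are descriptions.

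**Figure D4:**
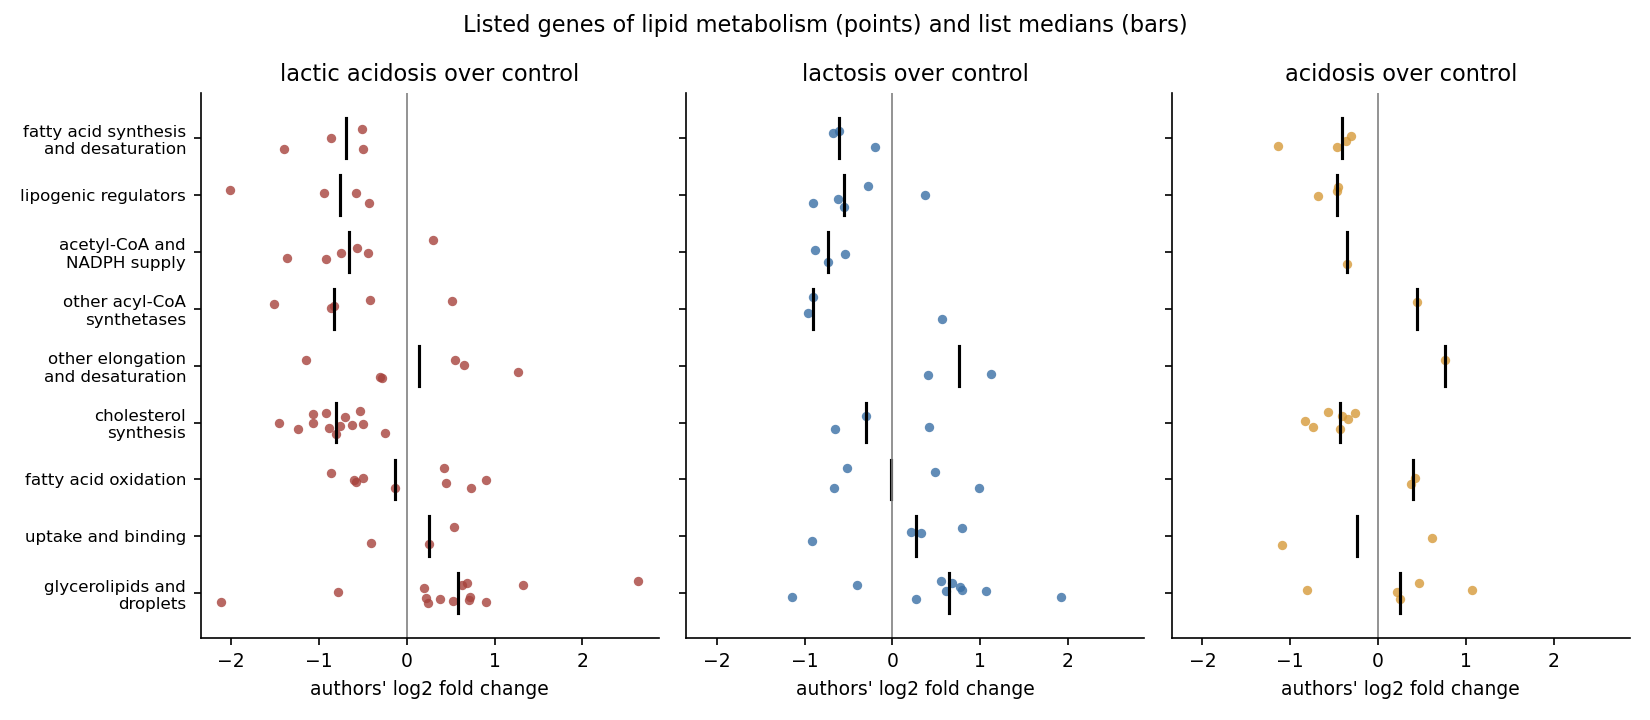
Log2 fold change of treated over control in the authors' deposited tables (x axis) for each listed gene (points, jittered vertically) of 9 lists of lipid metabolism (y axis), with list medians as bars. All listed genes of fatty acid synthesis and desaturation lie below 0 in each treatment, while 12 of the 14 listed glycerolipid genes lie above 0 in lactic acidosis.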

How the data were processed

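RNA of 12 KKU-213A libraries, 3 per group, was measured by single-end sequencing of 75 nt, and groups and replicate numbers were taken from the sample titles. STAR and hg38 are named in the submitters' processing notes; the read counter, its strand setting and the annotation are not given in the sources used here. The authors deposited 3 tables, 1 per treatment against the same controls, with column names as EBSeq writes them. For each library the authors deposited a length-normalized signal that the sources used here do not name as TPM or FPKM. Group means, also deposited as a signal, are of counts after division by size factors. The fold, deposited as a ratio with control on top, was inverted here. The authors also deposited 2 probabilities from their model, and that of equal expression was under 0.05 for every listed gene. Genes that were not listed were not analysed here. Control values were equal in all tables (largest difference 0). The number of per-sample columns left unused was 0.

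Limma 3.58.1 in R 4.3.3 was run on log2(value + 1), without a filter, over all genes of a table, or over genes in both tables for treated pairs, with Benjamini-Hochberg adjustment at 0.05, and was tested on simulated data. Such log2 differences understate changes of low genes. Library weights were fitted by robust least squares (soft L1 loss, scipy 1.17.1) so that weighted sums of the 6 libraries gave the authors' ratio of group means, over genes with all values at least 5. The median absolute residual was at most 0.00119 on the log2 scale. Same-numbered libraries did not deviate together (correlations from -0.26 to 0.155), so the replicate number was not treated as a pairing. Shared windows of 75 bases were counted on both strands of GENCODE release 29 transcripts. Named genes were the members, up to 4 listed genes per list and table by the smallest posterior probability, and the 3 genes most like each member listed in all tables. A gene named for 1 table may be given for the others too. ACACB and TECR were named besides, so that every gene of their list that was listed lower is given. The members and lists were chosen with earlier results of these data known. Python 3.11.15, pandas 2.3.3, numpy 2.4.6 and matplotlib 3.10.9 were used.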

Additional observations from a re-analysis of the deposited data

Results flagged for a closer look

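Effects of treatments on the same gene differed in 3 direct contrasts between treated groups by limma. SCD was lower in lactic acidosis than in lactosis by a log2 difference of -0.71 (249 and 409 on average, lower in 3 of 3 libraries, adjusted p = 0.00248). ACSS2 was lower in lactic acidosis than in acidosis by -0.29 (19.9 and 24.6 on average, lower in 3 of 3 libraries, adjusted p = 0.0157). SCD was higher in lactosis than in acidosis by 0.55 (409 and 281 on average, with overlapping groups, adjusted p = 0.0442).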

How the results depend on the processing

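Over 19 member differences, 114 planned fits that left out a library gave 90 with the same direction and side of the threshold, 15 that lost the call, 5 that gained it and 4 that turned. The other 114 planned fits gave 104, 2, 8 and 0, and the 114 fits on rescaled values with a library left out, chosen after seeing the data, gave 86, 0, 28 and 0, all set against the deposited fit. Set against the rescaled fit, which called 16 of the 19, 15 of 96 such fits lost the call: 6 of 6 for ACSS2 in lactosis against acidosis, 5 of 6 for ACSL3 in lactosis, 3 of 6 for SCD in lactic acidosis against acidosis and 1 of 6 for ACSL3 in acidosis. The 4 that turned were never past the threshold by limma. FADS2 in lactic acidosis against acidosis became 0.000642 and 0.0105 without lactic acidosis replicates 1 and 3 and 0.0322 without acidosis replicate 1, and SCD there became 0.00712 without acidosis replicate 1; the cause was not tested. Over the libraries left out, these 2 differences ranged from -0.18 to 0.0322 and from -0.29 to 0.00712.

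At 2-fold or more, 1 of 4, 0 of 3 and 1 of 4 listed members were lower in lactic acidosis, lactosis and acidosis. Of all listed genes, 675 of 4279, 398 of 3087 and 147 of 1721 were lower by as much, and 449, 252 and 70 higher. Rescaled, 4 members and 1680 genes passed in acidosis, and 2 members each in lactic acidosis against acidosis and in lactosis against acidosis; with a pseudocount of 0.1, 0 passed in the last. With the replicate number as a block, 656 genes passed in acidosis, beside 1033 without it, and FADS1 in lactic acidosis passed (adjusted p = 0.0495, limma); the block changed no other member's call. With an intensity trend FADS2 in lactic acidosis lost its call (adjusted p = 0.0501, limma).

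Leaving out each library gave 2624 to 4064 genes and 2 to 4 members in lactic acidosis, 1423 to 2589 and 0 to 3 in lactosis, and 425 to 1251 and 1 to 4 in acidosis. Between treated groups it gave 259 to 663 genes in lactic acidosis against lactosis, 485 to 759 in lactic acidosis against acidosis, and 131 to 335 in lactosis against acidosis with 0 to 1 member. On rescaled values it gave 1430 to 1658 genes in acidosis (1618 without acidosis replicate 1, 1627 without control replicate 1) with 3 to 4 members, and 1 to 3 members in lactic acidosis against acidosis. Depth is unknown, and only genes past the authors' threshold could be tested.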
